A study of Saccharomyces cerevisiae with 30 samples.

Results

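Secretory proteins whose first signal lies close to their stop codon leave a ribosome little time to reach the endoplasmic reticulum (ER) before the chain is finished. In budding yeast, 104 of 5904 open reading frames fell in this class. They were chosen from the authors' annotation as frames with a signal sequence or a transmembrane domain, no GPI anchor, and fewer than 130 codons between the first signal and the stop codon. Subunits of named complexes and families (among them oligosaccharyltransferase, signal peptidase, the vacuolar ATPase and the p24 proteins) were left out by name, which removed 9 further genes. The choice used annotation and no measured value. Of the 104, 43 were annotated with a signal sequence and 61 with a transmembrane domain. Their signal-to-stop length started at 22 codons and had a median of 98.5. The frames themselves ran between 28 and 1113 codons with a median of 120, and 15 of them had 250 codons or more, so that a late transmembrane domain, not a small protein, made the tail short. The first signal lay at codon 50 or before in 77 members. The remaining 709 secretory genes of the same classes had 130 codons or more after the signal.

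The signal recognition particle (SRP) binds a signal sequence or transmembrane segment as it leaves the ribosome and docks the ribosome on its receptor at the ER. A segment that starts close to the stop codon is still in, or barely out of, the ribosome's exit tunnel when translation ends. Such proteins are therefore known as candidates for insertion after translation, through the Sec62 and Sec63 branch of the translocon or, for tail-anchored proteins, through the GET pathway. Ribosome profiling sequences the fragments of mRNA that ribosomes protect, so that it shows which messages were being translated in each fraction.

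Footprints came from BY4741 cells with genotype srp72::SRP72-TAP-HIS3MX, which carry an affinity tag on the SRP subunit SRP72 in every fraction. SRP72-bound polysomes were recovered through the tag and compared with membrane polysomes and with soluble polysomes, in 2 libraries each and with no drug in the culture. Single footprint libraries of the same strain came from cultures given 100 µg/mL of the elongation inhibitor cycloheximide (CHX) before harvest: SRP72-bound polysomes, membrane ribosomes, soluble polysomes and soluble ribosomes. Poly(A) RNA was measured in SRP72-bound, membrane and soluble fractions of lysates treated with puromycin, which releases nascent chains, or with CHX. For RNA, the labels state that SRP72 was pulled down out of the soluble fraction. It was also measured in membrane and soluble fractions of the prt1-1 strain CY2522 and of W303. The prt1-1 allele makes a subunit of translation initiation factor eIF3 heat sensitive, and both strains were sampled after 1 h at 37 °C or at 25 °C. Each RNA fraction was a single library. The rich medium YPD was used throughout, and cells were taken in mid-log phase.

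Footprint libraries held between 16058363 and 34661880 counts, and the smallest RNA library, that of W303 membranes at 25 °C, held 3138839. Whether a replicate was a culture of its own is not stated in the labels, and p-values therefore cover only the spread among these libraries, which may be technical. A fraction's share of footprints cannot tell more messages in the fraction apart from more ribosomes per message. Levels are given in CPM, counts relative to library size after TMM scaling. Summed CPM of 10 cytosolic enzymes were 51408 and 44350.1 in SRP72-bound, 72636 and 73664 in membrane, and 78134 and 80573 in soluble polysomes, and none of the 10 was at 0 in any library. For 10 mitochondrial matrix and carrier genes they were 4634 and 4197 in SRP72-bound, 9076 and 9762 in membrane, and 5189 and 5716 in soluble polysomes. Neither the membrane nor the SRP72-bound fraction was thus free of messages of other compartments, and their part in the results below was not tested.

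Of the 104 members, 63 had enough footprints to be tested and 41 did not. Each of the 41 summed to at most 44 counts over the 6 polysome libraries, and 20 of them had no count in any of the 6. They comprised 19 seripauperin (PAU) genes, all 7 members with a signal-to-stop length under 50 codons, and 15 others. The PAU genes form a family of near-identical subtelomeric genes known for expression at low oxygen, and only PAU17 and PAU23 of its 21 members were tested. The counts that follow therefore describe the 63 tested members and not the class. A single tested member, ECM34, passed the filter through the SRP72-bound libraries alone, and SPG3 also passed in fewer than 2 soluble libraries.

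In SRP72-bound polysomes, most of the tested members were more abundant than in soluble polysomes. Of the 63, 45 were higher, 7 were lower and 11 did not pass the test (edgeR quasi-likelihood test, adjusted p under 0.05 over 5393 frames), against 39% higher and 38.9% lower among all frames tested. The median log2 fold change was 1.78 for members and −0.04 for all frames. Of the 45, 36 rose by more than 2-fold, as did 25.8% of all frames tested. Membrane polysomes gave another picture. Relative to soluble polysomes 13 members were higher, 22 were lower and 28 did not pass, against 34.2% higher and 34.9% lower among all frames, and the median was −0.30 for members and −0.07 for all frames. The 13 include ECM34, with 4 membrane counts in all, whose call ended without either soluble, membrane replicate 1 or either SRP72-bound library (edgeR adjusted p between 0.0625 and 0.168). Without ECM34, 12 of 62 were higher on membranes and 44 of 62 in SRP72-bound over soluble polysomes. When libraries were scaled so that the median cytosolic or nuclear gene did not change, the median of all frames moved to 0.15, and 20 members were higher and 9 lower on membranes, at a median of −0.09. The same scaling left 46 higher and 4 lower in SRP72-bound polysomes, with the median of all frames at 0.25. Under this scaling 2318 of the 5393 frames were higher and 959 lower on membranes. In SRP72-bound polysomes 2646 were higher and 1299 lower. Member counts with cytosolic scaling, here and below, are to be read beside these and not beside the shares above.

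The SRP72-bound and membrane ratios share their soluble libraries, so the fractions were also compared directly. SRP72-bound polysomes held more footprints than membrane polysomes for 45 of 63 members and fewer for 2, against 29.7% higher and 28.7% lower among all frames. The member median was 1.72, and that of all frames −0.01. Longer secretory genes showed the same excess. Of 88 with 130 to under 200 codons, 80 were higher and 2 lower, at a median of 2.85. For 200 to under 400 codons 194 of 217 were higher and 6 lower, at 1.12. For 400 or more 254 of 371 were higher and 7 lower, at 0.64. The excess was thus not particular to the members. The 2 lower members were MIC10 and RPP2B, and their calls ended without membrane replicate 2 or without either SRP72-bound replicate, when 0 members were lower.

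**Figure D1:**
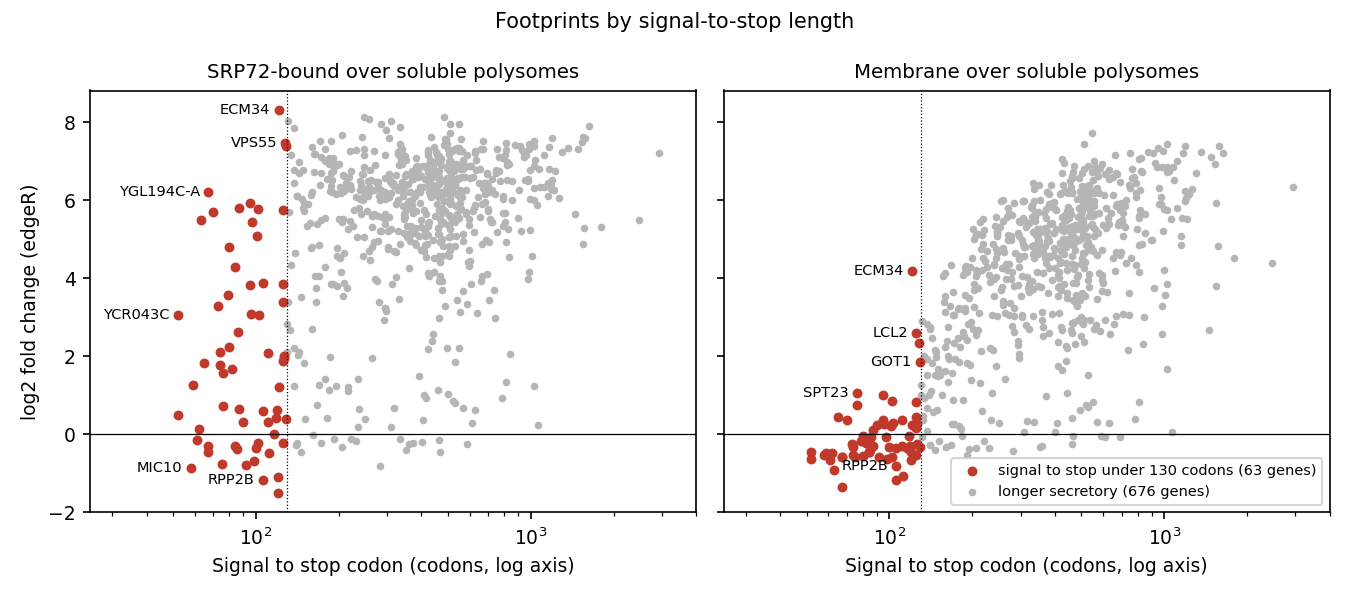
Log2 fold change (vertical axis) against the number of codons between the first signal and the stop codon (horizontal log axis) for SRP72-bound over soluble polysomes (left) and membrane over soluble polysomes (right). Red points are the 63 tested members and grey points 676 longer secretory genes, the dotted line marks 130 codons; apart from ECM34, which has no soluble count and whose plotted values are no bound, members spread between −1.51 and 7.46 on the left and stay at or under 2.59 on the right.

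The membrane ratio was also read by length. On membranes the median log2 fold change was −0.58 for 11 members of 50 to under 70 codons, −0.25 for 17 of 70 to under 90, −0.07 for 15 of 90 to under 110 and 0.05 for 20 of 110 or more. Longer secretory genes continued upward, with medians of 1.95 for 88 genes of 130 to under 200 codons, 4.59 for 217 of 200 to under 400 and 5.35 for 371 of 400 or more. In SRP72-bound polysomes the members' medians were 0.49, 2.12, 3.07 and 1.54 over the same bins, and those of longer genes 5.51, 6.03 and 6.26. Across the 63 members, Spearman's rho between signal-to-stop length and log2 fold change was 0.37 for membrane and 0.08 for SRP72-bound polysomes, as a description of genes that share the same libraries. With the length of the whole frame, rho was 0.49 for membrane and 0.21 for SRP72-bound polysomes over the same members. Among the 676 longer genes, rho with signal-to-stop length was 0.52 on membranes and 0.18 in the SRP72-bound fraction. The scatter of fold change by length shows that members of one length could differ by several log2 units in the SRP72-bound fraction.

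Frame length was measured beside these values. The split at 250 codons was chosen after its values had been seen. All 14 tested members with frames of 250 codons or more were higher in SRP72-bound polysomes, and 31 of 49 shorter ones were higher and 7 lower. On membranes 5 of the 14 were higher and 1 lower, and 8 of the 49 higher and 21 lower, beside 34.2% and 34.9% of all frames. With cytosolic scaling 9 of the 14 were higher and 0 lower, and 11 of the 49 higher and 9 lower. Under that scaling 2318 of 5393 frames were higher on membranes and 959 lower. The 40 tested members with frames under 150 codons had medians of 1.53 in SRP72-bound and −0.44 in membrane over soluble polysomes. Short frames with no secretory signal were low in both fractions. Of 316 cytosolic or nuclear frames under 150 codons, 271 were lower and 11 higher in SRP72-bound polysomes, at a median of −0.84, and 285 were lower and 1 higher on membranes, at −0.65. By the authors' class, 38 of 50 tested members with a transmembrane domain were higher and 5 lower in SRP72-bound polysomes, and 7 of 13 with a signal sequence were higher and 2 lower. First-signal position gave 24 of 39 higher for signals at codon 50 or before and 21 of 24 for later ones. Beside each of these splits, 39% of all frames were higher and 38.9% lower in SRP72-bound polysomes.

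The vacuolar polyphosphate polymerase supplied the members with most counts in SRP72-bound polysomes. VTC1, its small membrane subunit (chromosome V, 302806 to 303195 in the RefSeq R64 assembly), has 97 codons after its signal. It had 31673 and 23673 CPM in SRP72-bound, 579.9 and 638 CPM in membrane and 606 and 674 CPM in soluble polysomes. The SRP72-bound libraries were far above the other 4, whose ranges overlapped. The log2 fold change of SRP72-bound over soluble was 5.43 ± 0.20 (SE; edgeR adjusted p = 3.34e-08). On membranes it was −0.07 ± 0.16 (edgeR adjusted p = 0.708), and 0.14 with cytosolic scaling, neither past the threshold. VTC3, an accessory subunit, had 41593 and 29351 CPM in SRP72-bound, 903 and 888 CPM in membrane and 658 and 664 CPM in soluble polysomes. All 3 fractions stood apart, with log2 fold changes of 5.75 ± 0.21 in SRP72-bound and 0.44 ± 0.17 in membrane over soluble polysomes. The second of these was at the threshold (edgeR adjusted p = 0.0496), and it missed it without any 1 of the soluble or membrane libraries (adjusted p between 0.119 and 0.186). VTC1 and VTC3 alone held 68.1% and 67.3% of the members' counts in the SRP72-bound libraries. All members together held 6.52% and 5.29% of the counts in SRP72-bound, 0.469% and 0.506% in membrane and 0.753% and 0.776% in soluble polysomes. Without VTC1 and VTC3 these shares were 2.08% and 1.73%, 0.326% and 0.35%, and 0.551% and 0.568%.

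VTC4 and VTC5, 2 further subunits of the enzyme, had smaller fold changes. VTC4 and VTC5, like MGA2, AGA2, EMC6, SEY1, AQY2 and other members outside the naming rule, were picked after their values had been seen. VTC4, the catalytic subunit, with 90 codons after its signal, had 729 and 687 CPM in SRP72-bound, 664 and 670.2 CPM in membrane and 545 and 591 CPM in soluble polysomes. The 3 fractions differed little, at 0.32 ± 0.09 in SRP72-bound (edgeR adjusted p = 0.013) and 0.23 ± 0.09 in membrane over soluble polysomes (edgeR adjusted p = 0.0535, and called at 0.44 with cytosolic scaling). VTC5, another accessory subunit, with 96 codons, had 519.6 and 409.9 CPM in SRP72-bound, 67.7 and 64.3 CPM in membrane and 55.9 and 53.4 CPM in soluble polysomes. Its SRP72-bound libraries stood apart by 3.09 ± 0.13, and its membrane value of 0.27 ± 0.12 was called at 0.49 with cytosolic scaling only. VTC2, a paralog of VTC3, has 132 codons after its signal and so lay just outside the class. It had 19766 and 14215 CPM in SRP72-bound, 416 and 425 CPM in membrane and 327 and 328 CPM in soluble polysomes.

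**Figure D2:**
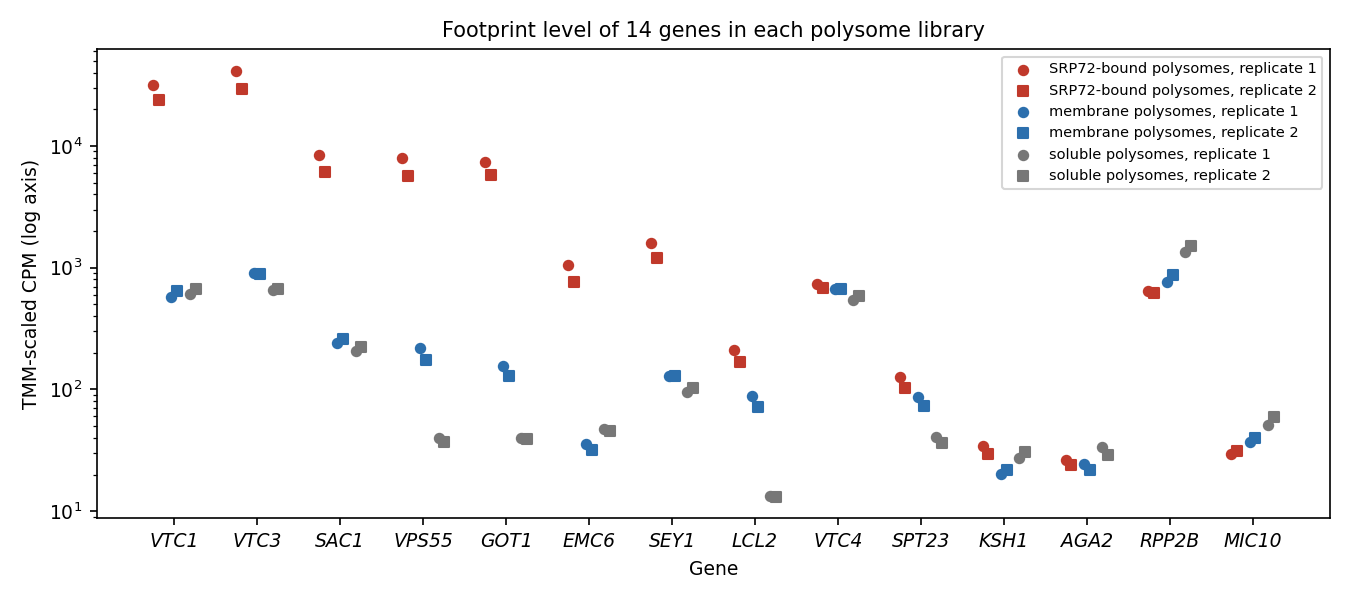
TMM-scaled counts relative to library size (CPM, vertical log axis) of 14 members in each polysome library, with SRP72-bound in red, membrane in blue and soluble in grey, circles for replicate 1 and squares for replicate 2. SRP72-bound values of VTC1 and VTC3 are at or above 23673 CPM while VTC4, KSH1 and AGA2 lie close together in all fractions, and RPP2B and MIC10 are highest in the soluble libraries.

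Members that act in traffic between the ER, the Golgi and endosomes were 7 of 8 higher in SRP72-bound and 3 of 8 higher and 2 lower in membrane over soluble polysomes. Over all frames 39% were higher in SRP72-bound polysomes, and 34.2% were higher and 34.9% lower on membranes, so that the membrane counts were near the background. These role groups were put together from textbook knowledge after the values had been seen. VPS55, which works in transport between late endosome and vacuole (chromosome X, 518763 to 519185), had 7991 and 5643 CPM in SRP72-bound, 219 and 174 CPM in membrane and 40 and 37.3 CPM in soluble polysomes. The 3 fractions did not overlap, and log2 fold changes over soluble were 7.46 ± 0.24 and 2.35 ± 0.19 for SRP72-bound and membrane polysomes (edgeR adjusted p = 1.67e-08 and 1.09e-05). GOT1, a Golgi transport protein (chromosome XIII, 854795 to 855293), had 7328 and 5745 CPM in SRP72-bound, 156 and 129.7 CPM in membrane and 39.7 and 38.9 CPM in soluble polysomes. Its fold changes were 7.38 ± 0.19 and 1.86 ± 0.15. VPS55 has 128 codons after the signal and GOT1 has 1 more, which puts both just inside the length limit. YOS1, a protein of ER-derived vesicles with 80 codons, had 213 and 163 CPM in SRP72-bound, 37.4 and 40.1 CPM in membrane and 37.1 and 41.9 CPM in soluble polysomes. Its SRP72-bound level rose by 2.25 ± 0.14, whereas membrane and soluble libraries overlapped (−0.03 ± 0.13, and 0.18 with cytosolic scaling, not called). KSH1, an essential protein of early secretion with 62 codons, had 34.2 and 29.6 CPM in SRP72-bound, 20.3 and 21.6 CPM in membrane and 27.6 and 30.5 CPM in soluble polysomes. It fell on membranes (−0.47 ± 0.09, edgeR adjusted p = 0.00219), and its SRP72-bound and soluble libraries overlapped (0.14 ± 0.09, edgeR adjusted p = 0.199), although it was called higher with cytosolic scaling at 0.43. YIP3, which binds Rab GTPases, rose by 3.07 ± 0.13 in SRP72-bound polysomes, and the endosomal syntaxin TLG2 by 3.56 ± 0.13. YND1, a Golgi apyrase with as many codons after its signal as GOT1, differed by 0.40 ± 0.07 in SRP72-bound and −0.33 ± 0.07 in membrane over soluble polysomes, the second not called with cytosolic scaling (−0.12).

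Of 9 members that work at the ER membrane, 8 were higher in SRP72-bound polysomes. On membranes 3 were higher and 4 lower, and with cytosolic scaling 4 were higher and 0 lower. Among all frames 39% were higher in SRP72-bound polysomes, and 34.2% were higher and 34.9% lower on membranes. The membrane counts of the 9 in the reported fit were near these shares. With cytosolic scaling 2318 of 5393 frames were higher on membranes and 959 lower. SAC1, the phosphoinositide phosphatase of the ER (chromosome XI, 34543 to 36414), carries its first signal at codon 522 of 623. It had 8474 and 6052 CPM in SRP72-bound, 242 and 258 CPM in membrane and 207 and 222 CPM in soluble polysomes. The SRP72-bound libraries were far above both others, by 5.08 ± 0.19 over soluble (edgeR adjusted p = 4.01e-08). The membrane libraries lay just above the soluble ones, by 0.22 ± 0.16 (edgeR adjusted p = 0.244), a difference called at 0.43 with cytosolic scaling. EMC6, a subunit of the ER membrane protein complex with 84 codons, had 1046 and 764 CPM in SRP72-bound, 35.8 and 32.1 CPM in membrane and 47.3 and 45.9 CPM in soluble polysomes. It rose by 4.28 ± 0.17 in SRP72-bound and fell by 0.46 on the log2 scale in membrane polysomes (SE 0.15), a call that ended with cytosolic scaling (−0.24). VPH2, an ER factor for assembly of the vacuolar ATPase, likewise rose by 4.81 ± 0.16 in SRP72-bound polysomes. On membranes it was called at −0.55 ± 0.14, and not with cytosolic scaling (−0.34). SEY1, the GTPase of ER fusion, has its first signal at codon 681 and rose by 3.82 ± 0.16 in SRP72-bound polysomes.

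The ER membrane group also holds tethered transcription factors. SPT23 and MGA2, which control the fatty acid desaturase gene and carry a transmembrane domain at codons 1006 and 1037, both have 76 codons after it. SPT23 had 126 and 103 CPM in SRP72-bound, 85.9 and 73.2 CPM in membrane and 40.5 and 36.2 CPM in soluble polysomes. Its log2 fold change over soluble was 1.58 ± 0.12 in SRP72-bound and 1.05 ± 0.12 in membrane polysomes. MGA2 had between 107 and 115 CPM in each SRP72-bound and membrane library, against 71.8 and 60.8 CPM in soluble polysomes. SRP72-bound and membrane libraries overlapped (−0.01 ± 0.10), and each was above soluble, by 0.73 ± 0.10 and 0.74 ± 0.10. ERI1, of the enzyme that starts GPI anchor synthesis, had only 2.82 and 2.0 CPM in SRP72-bound, 1.57 and 1.91 CPM in membrane and 2.85 and 2.59 CPM in soluble polysomes. It did not pass in SRP72-bound polysomes (−0.15 ± 0.21, and 0.14 with cytosolic scaling).

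Of 4 members at the cell surface, 3 were higher and 1 lower in SRP72-bound polysomes, and 1 was higher and 1 lower on membranes. Shares over all frames were 39% and 38.9% in SRP72-bound polysomes and 34.2% and 34.9% on membranes, and 4 genes are too few to set against them. AGA2, the adhesion subunit of a-agglutinin, with 84 codons, had 26.4 and 24.0 CPM in SRP72-bound, 24.2 and 21.7 CPM in membrane and 33.5 and 29.0 CPM in soluble polysomes. Both other fractions lay below soluble, by −0.31 ± 0.10 in SRP72-bound (edgeR adjusted p = 0.0236) and −0.44 ± 0.10 in membrane polysomes (edgeR adjusted p = 0.00408). Neither call held with cytosolic scaling (−0.02 and −0.23). BUD9 and BUD8, which mark bud sites, were higher in SRP72-bound polysomes by 2.62 ± 0.12 and 0.65 ± 0.10 and did not pass on membranes (−0.08 and 0.12; BUD8 was called at 0.33 with cytosolic scaling). Outside these 4, LCL2, with a signal sequence and 125 codons after it, had 210.4 and 168 CPM in SRP72-bound, 87.7 and 71.6 CPM in membrane and 13.3 and 13.2 CPM in soluble polysomes. At 2.59 ± 0.14 its membrane fold change was the largest among the members apart from ECM34, and its SRP72-bound fold change was 3.84 ± 0.15. AQY2, an aquaporin whose frame overlaps the neighbouring frame YLL053C by 50 bp, rose by 5.78 ± 0.19 in SRP72-bound and 0.86 ± 0.24 in membrane polysomes.

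The annotation put some proteins in the class that textbooks place elsewhere, and most of these were not enriched with SRP. Of 8 mitochondrial proteins (MIC10, AIM43, COX16, MGR2, RCF3, PET117, COI1 and MRX11), 7 were lower on membranes and 5 were lower and 1, MRX11, higher in SRP72-bound polysomes. Among all frames 34.9% were lower on membranes, and 38.9% were lower and 39% higher in SRP72-bound polysomes. Short frames are a nearer background, since MIC10, PET117, COI1, COX16 and RCF3 have frames of 97 to 120 codons. Of 316 cytosolic or nuclear frames under 150 codons, 285 were lower on membranes, and 271 were lower and 11 higher in SRP72-bound polysomes. The low values of the 8 were thus not particular to mitochondrial proteins. With cytosolic scaling 4 of the 8 were lower on membranes, and 3 lower and 1 higher in SRP72-bound polysomes. Under that scaling 959 of 5393 frames were lower on membranes, and 1299 were lower and 2646 higher in SRP72-bound polysomes. MIC10, a core subunit of the mitochondrial contact site complex, had 29.6 and 31.1 CPM in SRP72-bound, 36.7 and 39.6 CPM in membrane and 51.2 and 59.4 CPM in soluble polysomes. The fractions did not overlap, and it fell by 0.87 (SE 0.10) and 0.54 (SE 0.09) on the log2 scale. RPP2B, a stalk protein of the large ribosomal subunit annotated with a signal sequence, had 638 and 625 CPM in SRP72-bound, 758 and 876 CPM in membrane and 1345 and 1499 CPM in soluble polysomes. It had the lowest SRP72-bound ratio among members called lower, at −1.17 ± 0.11 (edgeR adjusted p = 2.37e-05). Of the 3 other proteins known from the nucleus or as part of an RNase complex, SWC7 was higher in SRP72-bound polysomes (1.87 ± 0.12), and ARG80 and RMP1 did not pass (−0.31 and 0.02).

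Many members with little or no described function were among those most enriched with SRP. Outside the role groups and the PAU family, 21 of 24 tested members were higher in SRP72-bound polysomes and 0 lower, and on membranes 5 were higher and 5 lower, or 6 and 2 with cytosolic scaling. Over all frames 39% were higher and 38.9% lower in SRP72-bound polysomes, and 34.2% and 34.9% on membranes. With cytosolic scaling 2318 of 5393 frames were higher on membranes and 959 lower. YGL194C-A, with an 80-codon frame and 67 codons after the signal, had 393 and 299 CPM in SRP72-bound, 2.71 and 3.61 CPM in membrane and 5.21 and 4.04 CPM in soluble polysomes. Its SRP72-bound level was higher by 6.21 ± 0.20. Its membrane call (−0.58 ± 0.22, edgeR adjusted p = 0.0477) ended with cytosolic scaling (−0.36), and without soluble replicate 1 (−0.36) or membrane replicate 1 (−0.37). YNL146W, MAY24 and YGL230C rose by 5.80 ± 0.24, 5.92 ± 0.16 and 5.49 ± 0.19 in SRP72-bound polysomes. YCR043C, with 52 codons, has the shortest tail among members that rose by more than 2-fold (327 and 278 CPM in SRP72-bound, 22.7 and 24.5 CPM in membrane and 35 and 38.1 CPM in soluble polysomes). It was higher by 3.05 ± 0.11 in SRP72-bound and lower on membranes, at −0.63 ± 0.11. ECM34 had 1.36 and 1.18 CPM in SRP72-bound libraries and no count in either soluble library, which was at least 19.7-fold higher than a floor of 3 counts per library. Its 4 counts in the membrane libraries did not exceed that floor. With ECM34 at its bound the members' SRP72-bound median stayed 1.78, and without it the membrane median was −0.30. YBR090C overlaps the gene NHP6B by 157 bp, and its low counts cannot be assigned to either frame.

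The members just inside the length limit and the genes just outside it are given as values with no test. LIP1, a ceramide synthase subunit with 130 codons, had log2 fold changes of 2.83 ± 0.17 in SRP72-bound and 1.01 ± 0.16 in membrane over soluble polysomes. FPR2, an ER prolyl isomerase with 130 codons, had 2.10 ± 0.09 and 1.26 ± 0.09. YKL063C, with 131 codons, had 3.40 ± 0.14 and −0.08 ± 0.13. GPI19, also with 131 codons, had 8.03 and 2.91, and the naming rule passed over it because of its name prefix. Within the limit, MOR1 and YHL042W, both of 126 codons, had under 3 CPM in each library.

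The authors' deposited table also marks genes with pronounced direct SRP binding and gives its codon. It marks 21 members as bound and 9 as not, and leaves 74 blank. In the authors' deposited table the distance between the first signal and the SRP position had a median of 71 codons in the 21 members (range 37 to 95) and of 73 codons in 186 longer secretory genes. The SRP position lay a median of 9 codons before the stop codon in members, and within 10 codons of it in 11 of 21. The class limit itself bounds this distance, so these values describe the class and are no test. In VTC1 the authors' deposited position is codon 127, in EMC6 codon 106 and in YPR170W-B codon 83, each 2 codons before the stop. In SEY1 and in SNA2, a vacuolar membrane protein, it lies 3 codons before the stop. In GOT1 and VPS55 it lies 67 and 71 codons before the stop. Of longer genes, 0 of 26 with 130 to under 200 codons lay within 10 codons of the stop. The authors' deposited table calls SRP prerecruited for 10 members and not for 20, against 448 and 47 longer secretory genes. AGA2 and KSH1 carry a direct SRP position in the authors' deposited table although AGA2 was called lower and KSH1 was not called in SRP72-bound over soluble polysomes. KSH1 was called higher in SRP72-bound over membrane polysomes (0.61 ± 0.10).

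**Figure D3:**
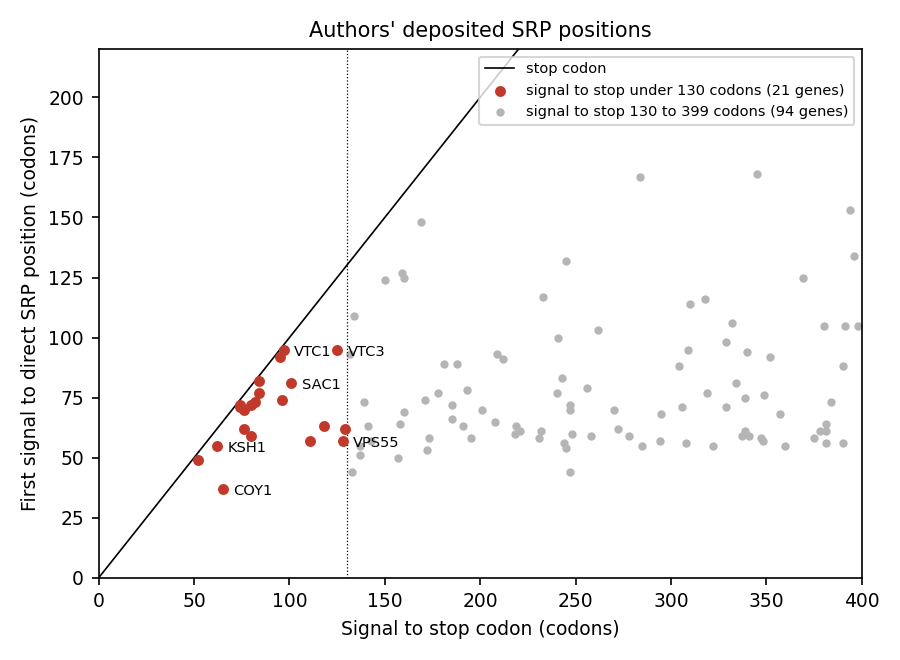
Codons between the first signal and the direct SRP position in the authors' deposited table (vertical axis) against codons between the first signal and the stop codon (horizontal axis), for 21 members in red and 94 genes of 130 to under 400 codons in grey. The solid line is the stop codon and the dotted line 130 codons; 11 of the 21 members lie within 10 codons of the solid line.

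Cultures given CHX at harvest supplied a second set of footprints, with 1 library per fraction, so ratios have no replicate check and no test. These ratios are log2 of CPM with 1 CPM added. Past 2-fold in SRP72-bound over soluble polysomes were 37 of 66 members higher and 3 lower, against 24% and 7.26% of all frames, and the member median was 1.64. Scaled by library size alone, 29 were higher and 8 lower. Counts past 2-fold over all frames were made with TMM scaling only, so member counts under other scalings, here and below, have no background. In membrane over soluble ribosomes 5 of 64 were higher (VPS55, LCL2, GOT1, YIP3 and PGA2) and 0 lower, against 18.5% and 0.0186% of all frames, at a median of 0.12. VTC1 had 16985 CPM in SRP72-bound and 696 CPM in soluble polysomes of CHX cultures, a log2 ratio of 4.61. On membranes of CHX cultures it had 793 CPM, against 570 CPM in soluble ribosomes (0.48). VPS55 had log2 ratios of 5.87 in SRP72-bound and 1.76 in membrane fractions. VTC4 and KSH1, which stood close to 0 in untreated SRP72-bound polysomes, had 1.63 and 1.81 with CHX, and PGA2, a protein of the ER and nuclear envelope, had 3.09 with CHX and 0.61 ± 0.09 untreated. The difference between CHX and untreated cultures was not tested.

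The messages of the members were also read in SRP72-bound material. In the CHX lysate, SRP72-bound over soluble mRNA was past 2-fold higher for 24 of 81 members and lower for 7, against 21.3% and 18.2% of all frames, at a median of 0.40. Scaled by library size alone 12 were higher and 25 lower, and with cytosolic scaling 33 were higher and 6 lower. The same counts over all frames were not made under these scalings. In the puromycin lysate 3 of 79 were higher and 23 lower, against 17.9% and 19.5% of all frames, at a median of −0.30. Library-size scaling gave 3 higher and 27 lower there, and cytosolic scaling 10 higher and 20 lower. Of 78 members with both ratios 59 were lower in puromycin, and the median change was −0.85, against −0.07 over all frames. The size of this change rested on the scaling: with library-size scaling 44 of 78 were lower, at a median of −0.24 for members and 0.87 for all frames, and with cytosolic scaling 62 were lower, at −0.99 and −0.15. Longer secretory genes of 130 to under 200 codons changed by a median of −3.09. Of the 24 members past 2-fold in the CHX lysate, 1 was past it in puromycin, YLR342W-A, beside 63.6% of 1193 frames chosen the same way. Both sets were selected on the CHX ratio, so their lower puromycin values are no test. For members with frames under 150 codons the median was −0.40 in puromycin and 0.38 in CHX, and for cytosolic or nuclear frames of that length it was −1.06 and −1.02.

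**Figure D4:**
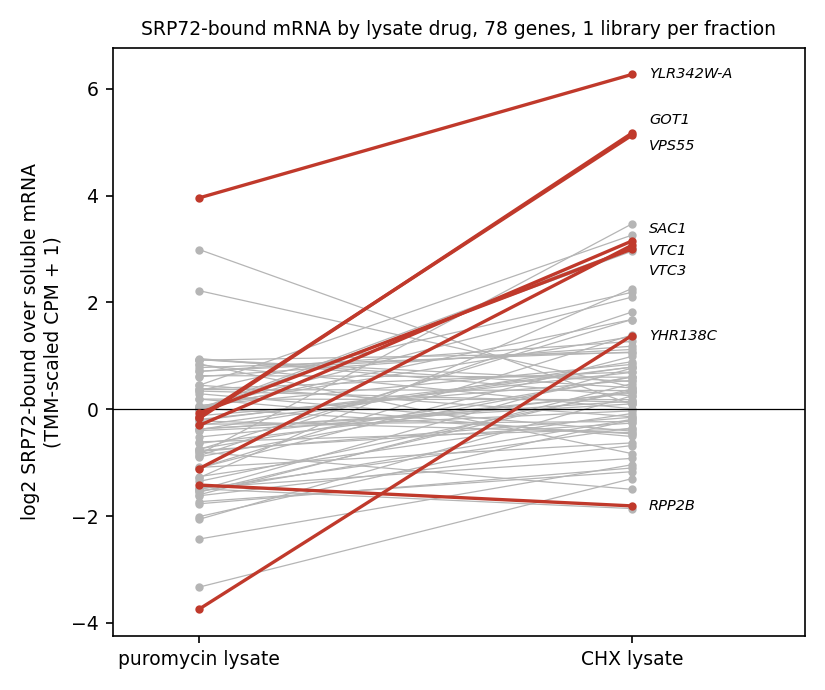
Log2 ratio of SRP72-bound over soluble mRNA (vertical axis) in the puromycin lysate (left) and the CHX lysate (right), a line for each of 78 members measured in both, with 8 drawn in red, 1 library per fraction. VPS55 and GOT1 are above 5 in CHX and near 0 in puromycin, whereas YLR342W-A stays above 3 in both.

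Named members show the size of these differences between single libraries. Intervals are exact 95% binomial intervals on the counts and cover counting error only. VPS55 mRNA had 54.7 CPM in SRP72-bound and 60.4 CPM in soluble material of the puromycin lysate, a ratio of 0.905 (0.835 to 0.98). In the CHX lysate it had 1495 CPM in SRP72-bound and 41.6 CPM in soluble material, a ratio of 35.9 (34.1 to 37.9). SAC1 mRNA had a ratio of 0.811 (0.782 to 0.841) with puromycin and 8.9 (8.7 to 9.1) with CHX. The ratio of VTC1 mRNA was 0.462 (0.441 to 0.483) with puromycin and 8.43 (8.25 to 8.61) with CHX. For YHR138C, a small protein with 111 codons after its signal, 0 counts stood in the SRP72-bound puromycin library and 425 in the soluble one. A count of 0 allows up to 0.187 CPM, so the message was at least 65.9-fold lower in SRP72-bound material. With CHX it had 36.5 CPM in SRP72-bound and 13.4 CPM in soluble material, a ratio of 2.73 (2.39 to 3.11).

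The share of members with their message past 2-fold on membranes was near that of all frames in the CHX lysate. There 12 of 80 were past 2-fold higher in membrane over soluble mRNA and 2 lower, against 17.6% and 2.81% of all frames, at a median of 0.04, and library-size scaling gave 6 higher and 6 lower. In the puromycin lysate 3 of 79 were higher and 2 lower, against 6.18% and 1.53%, at 0.05. VPS55 had log2 membrane ratios of 0.19 with puromycin and 1.67 with CHX, GOT1 0.07 and 1.3, and LCL2 0.51 and 1.34. VTC1 (0.01 and −0.05) and SAC1 (−0.16 and −0.20) had membrane ratios close to 0 in both lysates.

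Between 37 °C and 25 °C in the prt1-1 strain, 52 of 73 members had a lower membrane ratio of mRNA at 37 °C and 21 a higher one, in single libraries, beside 52.8% lower among all frames. At 37 °C in prt1-1, 7 of 87 members were past 2-fold higher in membrane over soluble mRNA and 20 lower, against 6.76% and 8.96% of all frames, at a median of −0.27. At 25 °C in prt1-1, 17 of 73 were higher and 10 lower, against 22.5% and 11.7%, at 0.26. Short frames without a signal were as low as members at 37 °C in prt1-1. For frames under 150 codons the median there was −0.42 in members and −0.39 in cytosolic or nuclear frames, and at 25 °C it was 0.52 and −0.53. In W303, 11 of 79 were higher and 2 lower at 37 °C, against 18.9% and 1.8%, at 0.07, and 7 were higher and 5 lower with library-size scaling. At 25 °C in W303, 13 of 72 were higher and 2 lower at 25 °C, against 22% and 6.85%, at 0.21. The median change between 37 °C and 25 °C was −0.58 for members in prt1-1 and −0.05 in W303, beside −0.08 and 0.0 for all frames. In prt1-1 the median change was −0.89 for members with frames under 250 codons and −0.13 for the 15 longer ones. It was −1.74 for secretory genes with 130 to under 200 codons after the signal, −2.59 for those with 200 to under 400 and −2.15 for those with more. Of the 13 members past 2-fold in W303 at 25 °C, 1 (HUR1) was past it in prt1-1 at 37 °C, 10 in prt1-1 at 25 °C and 8 in W303 at 37 °C. The 13 were selected on the W303 ratio at 25 °C, so lower counts in the other libraries are no test. Frames chosen the same way from the whole set were not counted. The frame of HUR1 overlaps the gene PMR1 by 181 bp. Strain and allele differ together between prt1-1 and W303 and cannot be told apart.

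**Figure D5:**
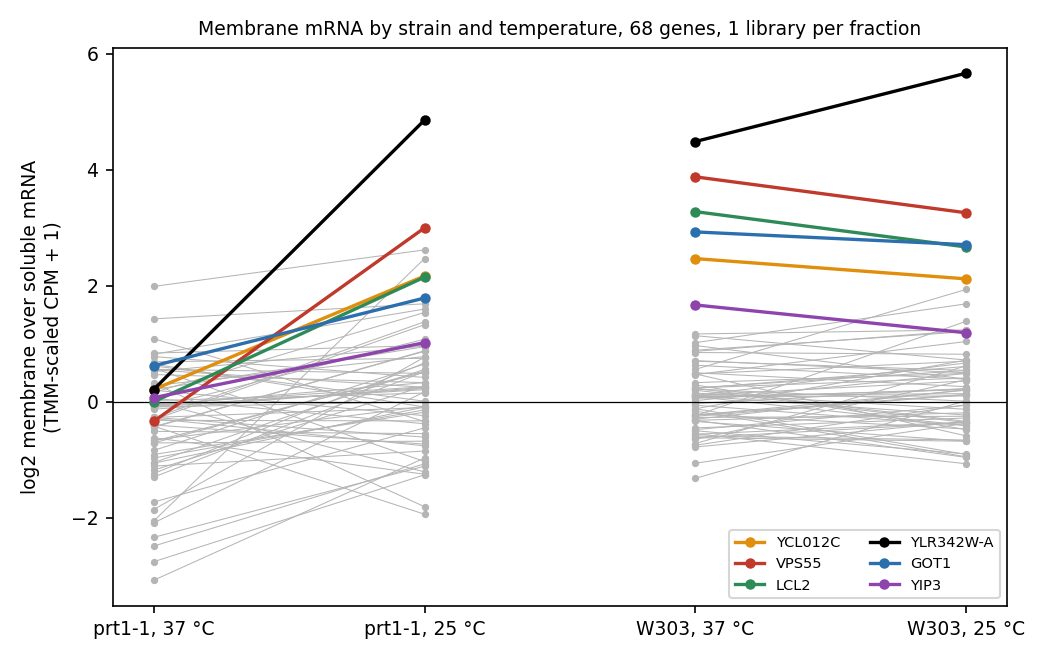
Log2 ratio of membrane over soluble mRNA (vertical axis) in prt1-1 and W303 at 37 °C and 25 °C, a line for each of 68 members measured in all 4, with 6 in colour, 1 library per fraction. In prt1-1 the coloured members lie between −0.34 and 0.62 at 37 °C and between 1.02 and 4.86 at 25 °C, and in W303 all 6 are above 1 at both temperatures.

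VPS55 mRNA had 59.5 CPM on membranes and 75.3 CPM in soluble material of prt1-1 at 37 °C, a ratio of 0.789 (0.71 to 0.876). At 25 °C prt1-1 had 154 CPM on membranes and 18.3 CPM in soluble material, a ratio of 8.39 (7.17 to 9.88). In W303 the ratio was 15.3 (13.3 to 17.8) at 37 °C and 9.96 (8.46 to 11.8) at 25 °C. LCL2 had a ratio of 1.0 (0.862 to 1.16) in prt1-1 at 37 °C and 4.54 (4.02 to 5.14) at 25 °C, and in W303 9.95 (8.88 to 11.2) at 37 °C and 6.58 (5.58 to 7.78) at 25 °C. GOT1 had 1.57 (1.33 to 1.84) in prt1-1 at 37 °C and 3.53 (3.12 to 3.98) at 25 °C, and in W303 7.93 (6.85 to 9.2) at 37 °C and 6.74 (5.76 to 7.91) at 25 °C. YIP3 followed with log2 ratios of 0.07 in prt1-1 at 37 °C and 1.02 at 25 °C, and of 1.67 and 1.19 in W303. SAC1 stayed close to 0 in all 4, between −0.13 and 0.26.

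The member YLR342W-A combined many reads of mRNA with almost no footprints. Its 57-codon frame (chromosome XII, 815810 to 815983) lies shortly downstream of FKS1 (809997 to 815627), which encodes a glucan synthase subunit and is a long membrane protein. Over the 6 polysome libraries YLR342W-A had between 0 and 6 counts, against 13273 counts in SRP72-bound, 3380 in membrane and 446 in soluble mRNA of the CHX lysate. Its log2 mRNA ratios were 6.27 for SRP72-bound and 3.34 for membrane in that lysate, and those of FKS1 were 4.61 and 2.76. In prt1-1 they were 0.21 at 37 °C and 4.86 at 25 °C for YLR342W-A, beside −0.13 and 2.08 for FKS1. Whether reads of the FKS1 message were counted in this frame was not tested.

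PAU messages were scarce in footprints and present in RNA. The 21 PAU members summed to 11 and 6 counts in SRP72-bound, 22 and 18 in membrane and 52 and 46 in soluble polysomes. In mRNA of the CHX lysate, also of BY4741, they summed to 448 of 26999841 counts in soluble material. There they had 331 of 24686433 on membranes and 267 of 23299822 in SRP72-bound material. The other RNA values here come from other strains and temperatures. In soluble mRNA of prt1-1 they summed to 1608 of 12461952 counts at 37 °C and 172 of 11400287 at 25 °C. In soluble mRNA of W303 they summed to 290 of 8400270 counts at 37 °C and 82 of 11361816 at 25 °C. PAU5, PAU17 and PAU23 had 436, 328 and 325 of the 1608 counts in prt1-1 at 37 °C. No source used here says how reads matching several near-identical copies, or reads on either strand, were counted, so the split among PAU genes and between overlapping frames is uncertain.

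Genes of the routes that take up proteins after translation were read from lists. Of 10 genes of the Sec61 channels and the post-translational translocon, 6 were higher and 4 lower on membranes, and the same numbers held in SRP72-bound polysomes. For this and the lists below, shares over all frames were 34.2% higher and 34.9% lower on membranes. In SRP72-bound polysomes they were 39% and 38.9%. With cytosolic scaling 2318 of 5393 frames were higher and 959 lower on membranes, and 2646 and 1299 in SRP72-bound polysomes. Of 6 GET pathway genes 2 were higher and 4 lower on membranes, with 1 lower under cytosolic scaling, and 2 were higher and 2 lower in SRP72-bound polysomes, or 4 and 2 with cytosolic scaling. These GET counts are near the shares over all frames of 39% higher and 38.9% lower in SRP72-bound polysomes. Of 3 SND pathway genes, whose products form another route to the ER, 2 were higher on membranes and 3 in SRP72-bound polysomes. In 10 tail-anchored genes, used as markers of proteins released before targeting, 10 were lower in SRP72-bound (median −0.61) and 10 in membrane polysomes (−0.55). With cytosolic scaling 8 of the 10 remained lower in each comparison. These genes were picked by hand, and SSS1 and SBH1 are also in the Sec61 list. The authors' whole tail-anchored class was less uniform. Of its 52 tested genes, 38 were lower and 5 higher in SRP72-bound polysomes, and 40 were lower and 2 higher on membranes. With cytosolic scaling 26 were lower and 9 higher in SRP72-bound polysomes, and 25 and 4 on membranes.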

How the data were processed

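Read counts per frame were deposited by the authors as whole numbers for 10 footprint and 14 RNA libraries. CASAVA, cutadapt 1.3, Bowtie, TopHat and the sacCer3 build are named, per the submitters' processing notes. The authors also deposited gene classes, signal and SRP positions and log2 enrichments; the log2 values were used only to compare them with those computed here. Of 30 samples, 6 monosome samples were not analysed here. From each sheet of counts, 3 lines without a name were dropped. The members and gene lists were chosen with earlier results of these data known.

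Polysome counts were tested with edgeR 4.0.16 (R 4.3.3), a quasi-likelihood fit of the 6 libraries by fraction with TMM scaling, filterByExpr (minimum count 10, minimum total 15) and Benjamini-Hochberg adjustment over 5393 frames at 0.05, with 3 residual degrees of freedom. The fit was also run on simulated counts, and no result given here rests on that run. Alternatives were other scalings (among them 1 that sets the median cytosolic or nuclear frame to no change), DESeq2 1.42.0, other filters, a replicate block, and each library left out. Single libraries were compared as log2 ratios of TMM-scaled CPM with 1 CPM added, for frames with 10 counts or more over both. RNA columns of BY4741 without a drug in their name were taken as the CHX lysate, because the others name puromycin.

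Genes were named by a rule: for each contrast the 6 members with the largest and the 6 with the smallest fold change, the 6 with the highest CPM per kb, the 4 members nearest below and the 4 secretory genes nearest above the length limit, and members of a list of small membrane proteins. Above the limit, genes with the name prefixes left out of the class were passed over, GPI19 among them. All 104 members matched RefSeq R64 by locus tag.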

Additional observations from a re-analysis of the deposited data

Results flagged for a closer look

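Of 68 members with all ratios, 31 had a membrane over soluble mRNA ratio that moved in opposite directions between 37 °C and 25 °C in prt1-1 and in W303. In 4 of them the move was at least 0.5 on the log2 scale in both strains, with at least 40 counts behind each ratio. The change on the log2 scale was −3.34 in prt1-1 and 0.62 in W303 for VPS55, and −2.15 and 0.61 for LCL2. For MAY24 it was −0.63 in prt1-1 and 0.59 in W303, and for ALR2, a magnesium transporter, −0.74 and 0.56. The same counts were not made over all frames, so the 31 and the 4 have no background and are no result about the class. In W303, 33 of 72 members had a change above 0 and 39 below, at a median of −0.05. Each ratio came from 1 library per fraction, and the difference between the strains was not tested.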

How the results depend on the processing

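With cytosolic scaling 20 members were higher and 9 lower on membranes, 4 were lower in SRP72-bound over soluble and 1 lower in SRP72-bound over membrane polysomes. Of all 5393 frames, that scaling gave 2318 higher and 959 lower on membranes. It gave 1299 lower in SRP72-bound over soluble and 1219 lower in SRP72-bound over membrane polysomes. Leaving out 1 library at a time gave 10 to 17 higher and 15 to 23 lower on membranes, 41 to 45 higher and 5 to 7 lower in SRP72-bound over soluble, and 41 to 45 higher and 0 to 2 lower in SRP72-bound over membrane polysomes. Without the count filter 84 members entered the fit, and 13 were higher and 23 lower on membranes, at a median of −0.31. In SRP72-bound over soluble polysomes 46 were higher and 7 lower, and the median was 0.71 instead of 1.78. In SRP72-bound over membrane polysomes 45 were higher and 2 lower, and the median was 0.93 instead of 1.72. A fit with the replicate number as a block gave 15 higher and 26 lower on membranes, 45 and 9 in SRP72-bound over soluble, and 46 and 2 in SRP72-bound over membrane polysomes. Nothing in the labels says that the numbers pair libraries, and deviations of same-numbered libraries correlated at 0.32, 0.12 and 0.09.

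Fold changes that were not called in the reported fit changed sign in some alternatives, and the cause was not tested. On membranes VTC1 was at 0.14 with cytosolic scaling and between −0.14 and 0.01 with 1 library left out. YOS1 was at 0.01 with RLE scaling and with DESeq2, at 0.18 with cytosolic scaling and between −0.11 and 0.06 with 1 library left out. MOR1 ran between −0.89 and 0.65 and PAU23 between −1.53 and 0.01. In SRP72-bound over soluble polysomes ERI1 was at 0.14 with cytosolic scaling and between −0.45 and 0.05 with 1 library left out, and YBR090C ran between −1.29 and 0.14. In SRP72-bound over membrane polysomes YBR090C ran between −0.23 and 1.14, PAU23 between −1.52 and 0.02 and AIM43 between −0.33 and 0.01. Over the fold changes of named genes, 965 values kept direction and side of the threshold, 35 lost a call, 23 gained one and 16 changed sign.

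Counts past 2-fold in single libraries moved with the scaling. Over all frames such counts were made in the reported setting only, so the alternative counts below are no result about the class. The median change of members in SRP72-bound mRNA between puromycin and CHX lysates was −0.24 with library-size and −0.99 with cytosolic scaling, and that of membrane mRNA in prt1-1 between 37 °C and 25 °C −0.56 and −0.67; these alternatives were chosen after seeing the data. With library-size scaling, 8 members were lower in SRP72-bound footprints of CHX cultures, 6 higher and 6 lower in membrane mRNA and 12 higher and 25 lower in SRP72-bound mRNA of the CHX lysate, and 7 higher and 5 lower on W303 membranes at 37 °C. With cytosolic scaling, 1 was lower in SRP72-bound footprints of CHX cultures, 4 lower in membrane mRNA of the CHX lysate, 10 higher in SRP72-bound mRNA of the puromycin lysate, and 1 lower on W303 membranes at each temperature. With 0.25 CPM added, 9 were lower in membrane and 12 lower in SRP72-bound mRNA of the CHX lysate, and in puromycin 7 were higher and 8 lower in membrane and 8 higher in SRP72-bound mRNA. With a minimum of 20 counts 1 was lower on W303 membranes at 25 °C. With a minimum count in the filter 41 members were not tested, and single libraries have no replicate error.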
